A study of Mus musculus with 18 samples.

Results

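The 50 genes described here encode the machinery of mitosis. They are the cyclins and kinases that start it, the spindle checkpoint, the centromere and kinetochore, the motors and binders of spindle microtubules, the midzone and cytokinesis proteins, the condensins and topoisomerase of the mitotic chromosome, and the transcription factors Foxm1 and Mybl2 that act on genes of this kind. They were taken from a written list of mouse gene symbols, drawn up with earlier results of these data known. Each symbol matched 1 identifier among the 54838 genes of the count table, and all 50 were among the 20067 genes that passed the filter on low counts. They were read across 18 RNA-sequencing libraries, 3 in each of 6 groups. NSPs are neurospheres, free-floating clusters of neural stem cells from the ventricular zone of wild-type C57BL/6J mouse brains at embryonic day 14, grown with EGF at 20 ng/ml. The groups 24h, 72h and 1week are NSPs placed on poly-L-ornithine in medium with 10% fetal bovine serum for 24 h, 72 h or 1 week, in which they turn into astrocytes. The groups 24h_TNF and 72h_TNF received TNF at 50 ng/ml, an inflammatory cytokine, in the same medium for 24 h and 72 h. The cells carry no transgene, and the cultures were neither sorted nor sampled at the level of single cells. The study's methods describe cultures from single brains and, for its data in general, independent biological experiments. The labels do not tie a replicate number to a brain, so the p-values below measure the spread between these libraries.

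Genes of this group are made in a burst late in the cell cycle. In resting cells the MuvB core, joined to a pocket protein and E2F4 in the DREAM complex, keeps them low through a promoter letter string called the CHR. In cycling cells the same core binds B-Myb, the product of Mybl2, and then FOXM1, and transcription rises. NF-Y, which binds the CCAAT box, is known to act beside it. At the protein level the kinetochore ties chromosomes to spindle microtubules, the checkpoint holds anaphase until every chromosome is attached, and separase, held back by securin, then cuts the cohesin that joins the sister chromatids. Neural stem cells divide in EGF, whereas astrocytes formed in serum leave the cycle for the most part.

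Promoter stretches of 9 members are shown here and of 2 more below, with the letters of the CHR and of the CCAAT box where they occur. They are shown because most members with a known window hold at least 1 of these motifs and the list was not chosen by them. Pttg1 is shown as a member with neither. RefSeq windows on GRCm38.p6, from 250 bases before to 50 bases after a gene's start, were at hand for 39 of the 50 members. These members had 41 windows, and the end of 29 of the windows matched an annotated transcript of the gene. The CHR was searched as TTTGAA and the CCAAT box as CCAAT, each on both strands, so that TTCAAA and ATTGG also count. Capitals mark these letters, and all sequences run 5′ to 3′ on the strand of the gene. Ahead of the start, the stretches lie in no annotated exon of GENCODE M21, except that of Pttg1, which lies in an exon of a non-coding Pttg1 transcript.
Mki67, minus strand, chr7:135716460-135716579: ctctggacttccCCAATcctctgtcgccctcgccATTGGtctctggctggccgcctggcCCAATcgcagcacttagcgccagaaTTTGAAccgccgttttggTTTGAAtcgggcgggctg
Cdk1, minus strand, chr10:69352939-69353002: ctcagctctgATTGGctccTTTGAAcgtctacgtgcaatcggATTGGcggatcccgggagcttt
Cdc20, minus strand, chr4:118437353-118437433: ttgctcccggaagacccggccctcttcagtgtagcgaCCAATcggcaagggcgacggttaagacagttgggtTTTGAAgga
Top2a, minus strand, chr11:99024190-99024299: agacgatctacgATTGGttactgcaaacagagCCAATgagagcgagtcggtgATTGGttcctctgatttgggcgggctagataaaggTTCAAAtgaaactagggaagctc
Kif11, plus strand, chr19:37376292-37376381: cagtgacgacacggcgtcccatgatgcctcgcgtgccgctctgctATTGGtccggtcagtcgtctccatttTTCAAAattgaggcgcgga
Kif2c, minus strand, chr4:117178813-117178902: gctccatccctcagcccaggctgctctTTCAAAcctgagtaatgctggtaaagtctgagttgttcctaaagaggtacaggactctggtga
Smc2, plus strand, chr4:52439071-52439130: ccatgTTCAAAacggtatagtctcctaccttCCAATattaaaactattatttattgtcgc
Pttg1, minus strand, chr11:43425982-43426091: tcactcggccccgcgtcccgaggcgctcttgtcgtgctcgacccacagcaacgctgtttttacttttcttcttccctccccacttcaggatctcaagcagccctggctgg
Spc25, minus strand, chr2:69206214-69206303: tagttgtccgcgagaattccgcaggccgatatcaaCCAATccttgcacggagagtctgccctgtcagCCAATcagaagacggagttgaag

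Mki67, the proliferation marker Ki-67, and Top2a, topoisomerase II alpha, are members with several motifs in a row. Kif2c, a microtubule-depolymerising kinesin, has a CHR and no CCAAT box in its window. The RefSeq start of that window lies inside the gene as annotated in GENCODE M21, whose 5′ end is at chr4:117182639. Smc2, a condensin subunit, carries both motifs although it kept more of its level than most members. Pttg1, which encodes securin, has neither motif anywhere in its window, and Spc25, a subunit of the Ndc80 complex of the kinetochore, has 2 CCAAT boxes ahead of its start. These last 2 are shown because Pttg1 did not fall and Spc25 responded to TNF. In Spc25 the CHR lies past the start, in the transcribed part, as it does in Aspm, which encodes a spindle-pole protein, and in Cenpf, a kinetochore protein.
Spc25, bases 13 to 42 after the start, chr2:69206172-69206201: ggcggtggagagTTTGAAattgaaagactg
Aspm, plus strand, bases 1 to 25 after the start, chr1:139454773-139454797: gcgataTTTGAAccgagcaaaagcg
Cenpf, minus strand, bases 1 to 25 after the start, chr1:189688062-189688086: agTTTGAAtcgctcgtgctggtcgg

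A CHR was present in the windows of 29 of 39 members (74.4%). Of the 11888 tested genes with a window 14.5% held one, and of all 27025 genes of the promoter table the share was 20.2%. The CHRs of the members lay close to the start. Within 50 bases on either side of it, 69.2% of members held a CHR against 3.9% of the tested genes. A CHR lay past the start in 19 members and before it in 13, with some members in both counts. The CCAAT box was in 27 of 39 members (69.2%) and in 42.4% of the tested genes, and both motifs together were in 61.5% and 6.0%. Related lists were read in the same way. Of 64 other G2/M genes with a window 50.0% held a CHR, 71.9% a CCAAT box and 42.2% both, and of 36 DNA replication genes 13.9%, 61.1% and 8.3% did. Within 50 bases of the start, 37.5% of these other G2/M genes and 8.3% of these DNA replication genes held a CHR. The 10 members with no CHR letters in the window were Birc5, Bub1, Ccnb1, Cenpe, Mad2l1, Mybl2, Ncaph, Nuf2, Nusap1 and Pttg1. Aurkb, Ccna2, Cdc25c, Foxm1, Incenp, Kif20a, Pbk, Ska1, Smc4, Spc24 and Tpx2 had no window. A CHR site and a CCAAT site shared bases in 1 case. A match is a match of letters, and no binding was measured.

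**Figure D1:**
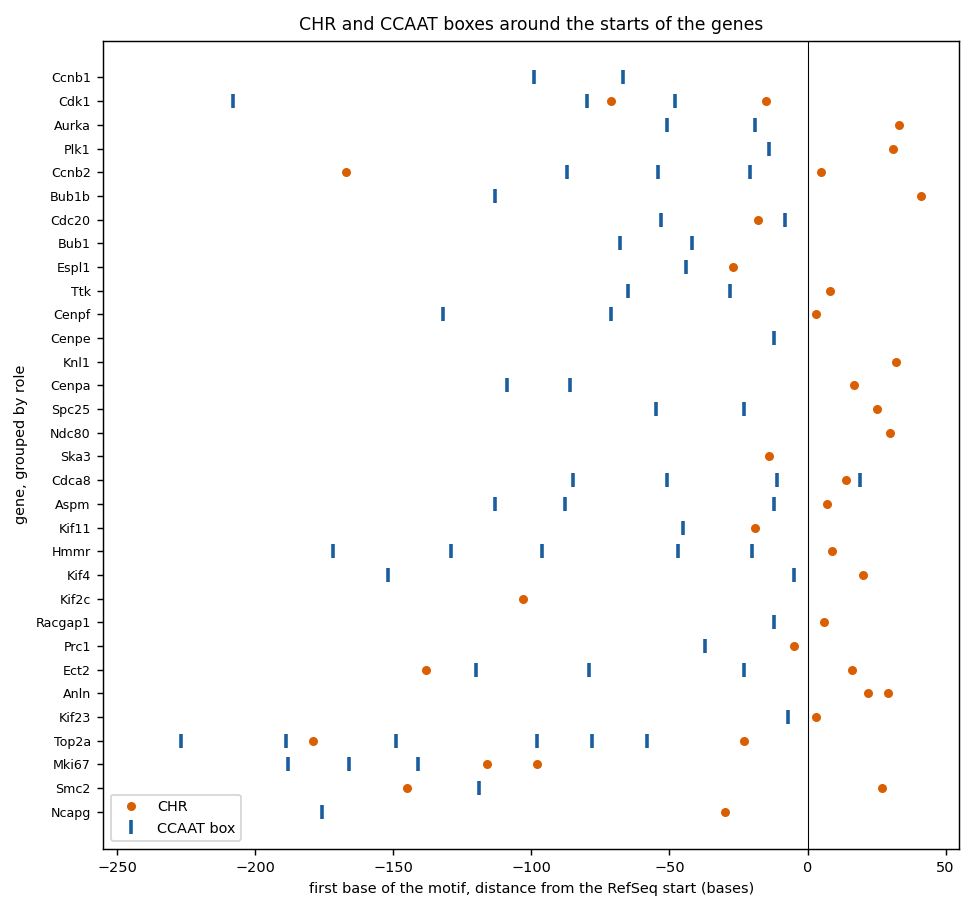
Positions of the CHR (orange circles) and the CCAAT box (blue bars) in the promoter windows of the 32 members that hold at least 1 of them; the horizontal axis is the distance of the motif's first base from the RefSeq start in bases, and each row is a gene. The circles gather near the start and many lie past it, while the bars lie mostly before it; for genes with 2 windows 1 is drawn.

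Some libraries stood apart over these genes. NSP replicate 1 was the highest of the 3 NSP libraries for 44 of 50 members, at a median of 1.59 times the mean of the other 2, whereas over all tested genes it was highest for 47.3% with a median ratio of 1.03. Replicate 1 of 24h_TNF was the lowest of its group for 43 of 50 members (median ratio 0.681), and replicate 1 of 72h_TNF was the highest for 34 of 50 (1.34). These 2 libraries also had the highest shares of mitochondrial counts, 6.24% and 8.01%, against 1.60% to 5.02% in the other 16, and the part of this in the results was not tested. Cell type markers set the same 2 libraries apart. CPM is the count as a share of its library's total, on the usual scale, with that total multiplied by a TMM factor. In replicate 1 of 24h_TNF Gfap stood at 1871 CPM against 463 and 597 in replicates 2 and 3. The 6 neural stem cell markers summed to 1458 CPM in replicate 1 of 24h_TNF, against 3230 and 2923 in replicates 2 and 3. In replicate 1 of 72h_TNF Gfap stood at 1022 CPM against 217 and 229, and that sum was 858 CPM against 1445 and 1350. The part of these in the TNF results was not tested either. Total counts per library ran from 12509693 to 22549627. Cell type markers also moved with the members' fall, and their part in it was not tested. Over all tested genes, 25.5%, 27.2% and 29.1% were lower than in NSPs at 24h, 72h and 1week, and 27.2% were higher at 24h. Some of the marker counts that follow lie near these shares. Against NSPs, 5, 4 and 1 of the 9 astrocyte markers had risen at 24h, 72h and 1week, and 1, 2 and 4 of them had fallen. Gfap had means of 27.1 CPM in NSPs, then 899, 2432 and 63.4 CPM over the same times, whereas S100b went from 117 to 66.8, 76.0 and 14.1 CPM. Of 6 neural stem cell markers 4, 3 and 5 were lower over these times, with 1 higher at 24h. Hes5 fell from 72.5 to 7.69, 0.365 and 0.0930 CPM and Fabp7 from 2374 to 1186, 344 and 209 CPM. Sox2 went from 331 CPM in NSPs to 209, 312 and 241 CPM at 24h, 72h and 1week. Of 5 tested oligodendrocyte lineage markers 3, 4 and 5 were lower, among them Olig2 (415 CPM in NSPs and 20.2 CPM at 72h), and of 5 tested neuron markers 1, 4 and 4 were lower. All 3 tested ependymal markers were higher at each time, among them Foxj1 (27.8 CPM in NSPs and 271 CPM at 72h), and the other one listed, Tmem212, had means of 0 in NSPs, 24h, 72h and 1week. The microglia markers summed to between 1.15 and 3.88 CPM in each of the 18 libraries and the fibroblast and mural markers to between 0.254 and 5.86 CPM, with Itgam and Lum at or near 0. Within these low sums the mural marker Rgs5 was called higher at all 3 times (0.0591 CPM in NSPs and 2.49 at 72h) and the microglia marker P2ry12 at 24h (0.853 and 2.17 CPM). The 4 endothelial markers summed to between 0.958 and 6.75 CPM, with Kdr called higher at 72h.

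Nearly the whole group was lower within a day of differentiation. Compared with NSPs, 49 of the 50 members were lower at 24h in edgeR's quasi-likelihood test (adjusted p under 0.05 after Benjamini-Hochberg adjustment over all tested genes), while 25.5% of all tested genes were lower. The median log2 fold change of the members was −3.93, and the median member kept 6.5% of its NSP level, from 2.84% for Kif2c to 87.9% for Pttg1. At 72h against NSPs 49 members were lower (27.2% of all genes), with a median of −5.62, and at 1week 49 were again lower (29.1% of all genes), with a median of −5.94. The same 3 NSP libraries serve all these comparisons. In each of the 49 members every library of each differentiating group lay below every NSP library. Leaving out NSP replicate 1 gave 49 lower members at each time, with medians of −3.71, −5.44 and −5.68. In bulk RNA, fewer dividing cells and less of these RNAs per cell cannot be told apart.

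**Figure D2:**
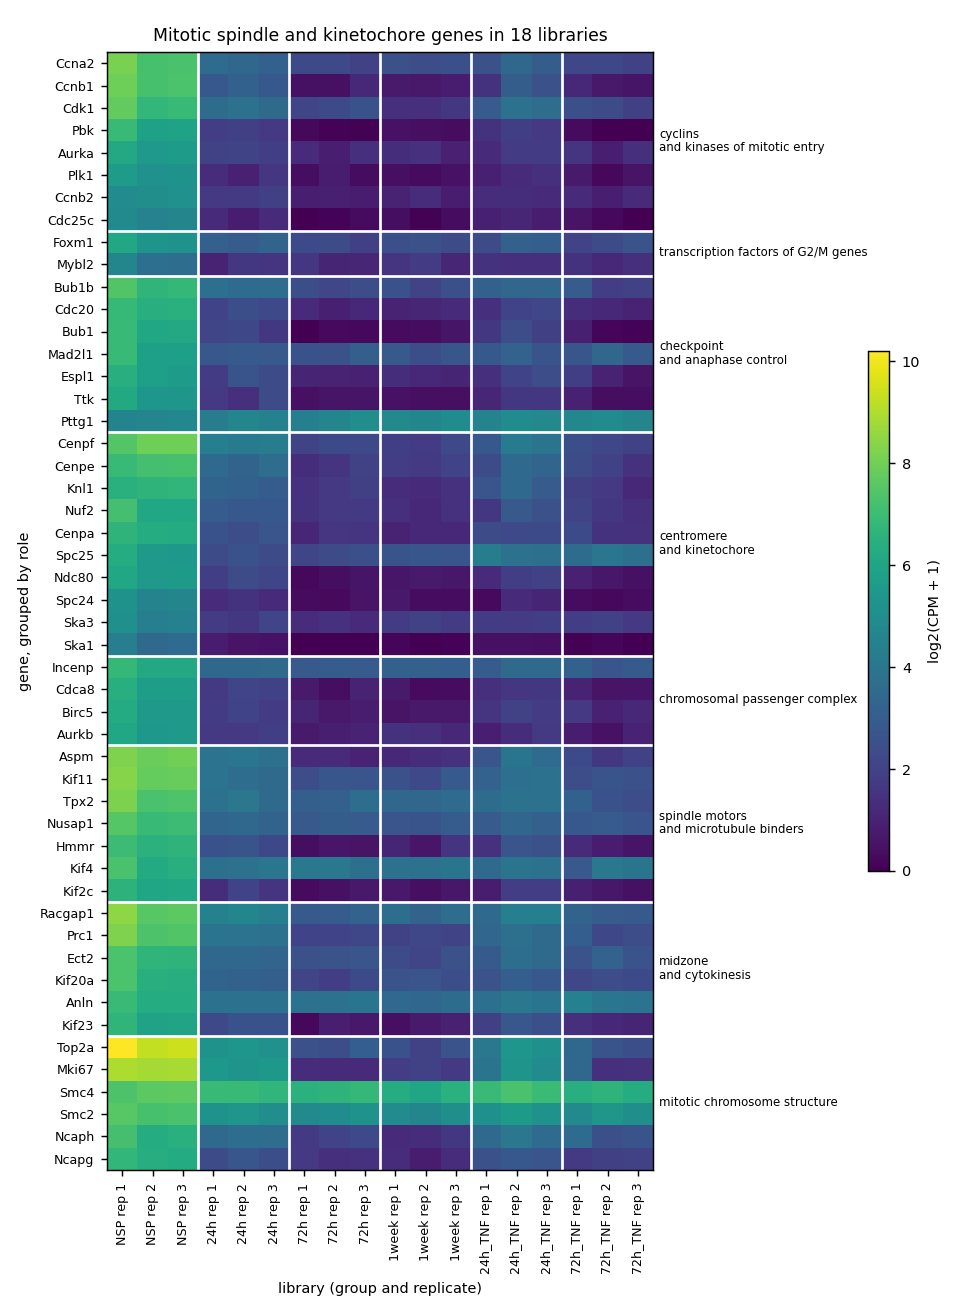
Level of each of the 50 genes (rows, grouped by role) in each of the 18 libraries (columns, by group and replicate); the colour is log2(CPM + 1). The NSP columns are bright in nearly all rows, the 24h columns are intermediate, the 72h and 1week columns are dark, and Pttg1 and Smc4 keep nearly the same colour or a bright one throughout.

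The cyclins and kinases of mitotic entry fell furthest in order of role medians at 1week. The 8 members kept a median of 4.81% at 24h, 1.45% at 72h and 1.05% at 1week. Ccnb1, cyclin B1, the activating partner of Cdk1, had 248, 148 and 157 CPM in NSPs, 6.05, 8.05 and 5.95 at 24h, 0.378, 0.368 and 1.21 at 72h, and 0.662, 0.603 and 0.704 at 1week. No library of a later group came near the NSP range, and 72h and 1week overlapped. The log2 fold change of Ccnb1 was −4.77 ± 0.36 (SE) at 24h and −8.06 ± 0.45 at 72h. Cdk1, the kinase that drives entry into mitosis, had 213, 106 and 118 CPM in NSPs, 11.3, 12.9 and 10.6 at 24h, 3.33, 3.87 and 4.95 at 72h, and 1.59, 1.59 and 2.18 at 1week. Its 4 groups did not overlap and stepped down in order of time. Pbk, a mitotic kinase, changed most within this role, from 118, 56.1 and 58.5 CPM in NSPs to 2.65, 2.79 and 2.28 CPM at 24h. Its 72h libraries held 2, 1 and 1 counts, a level 923 times lower than in NSPs with a 95% Poisson interval of 361 to 3390 that covers counting error of the 72h libraries only. The others of this role, Ccnb2, Ccna2, Cdc25c, Plk1 and Aurka, kept between 3.64% and 7.66% at 24h and between 0.378% and 2.55% at 72h. The annotation holds processed copies of Ccnb1 and Ccnb2, so reads of these could be split.

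The transcription factors Foxm1 and Mybl2 both fell, to a median of 13.3% at 24h against 6.5% over the 50 members. Foxm1 had 66.6, 37.8 and 36.2 CPM in NSPs, 7.71, 6.6 and 8.55 at 24h, 3.94, 4.11 and 2.86 at 72h, and 4.59, 4.71 and 4.08 at 1week. It kept 16.3%, 7.76% and 9.52% of its NSP level, and its log2 fold change at 24h was −2.62 ± 0.26. Mybl2 had 24.9, 12.4 and 11.4 CPM in NSPs and between 0.982 and 2.47 CPM in all 9 untreated differentiating libraries, which overlapped between times. It kept 10.3% at 24h and 11.5% at 1week, and its difference between 72h and 24h was −0.27 ± 0.40 (adjusted p = 0.68).

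In checkpoint and anaphase control, 6 of 7 genes fell at 24h and Pttg1 did not. Bub1, a checkpoint kinase at the kinetochore, had 120, 68 and 69.5 CPM in NSPs and 3.4, 3.69 and 2.12 at 24h, and 6 counts in all at 72h, 681 times lower (95% Poisson interval 313 to 1860). Ttk, the Mps1 kinase, and Cdc20, the activator of the anaphase-promoting complex, kept 0.892% and 1.19% at 72h, and Espl1, separase, kept 1.61%. Bub1b, BubR1, kept 3.18%. Mad2l1, which encodes the checkpoint protein Mad2, stopped early: its libraries read 5.82, 6.49 and 6.19 CPM at 24h, 5, 4.79 and 7.43 at 72h, and 6.14, 4.49 and 5.56 at 1week, after 116, 53.6 and 53.5 in NSPs. Pttg1 had 23.4, 24 and 26.4 CPM in NSPs, 19, 24.8 and 21.1 at 24h, 20.1, 24.1 and 30.7 at 72h, and 27.2, 24.7 and 30.6 at 1week. The 4 groups overlapped. The log2 differences of Pttg1 from NSPs were −0.18 ± 0.16, 0.02 ± 0.16 and 0.16 ± 0.16 (adjusted p = 0.35, 0.91 and 0.40), with a 95% interval at 24h from −0.53 to 0.16. Espl1, which securin holds back, was at 6.29% of its own NSP level at 24h.

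All 10 centromere and kinetochore genes fell at 24h. Ska1, of the Ska complex that follows microtubule ends, changed most within this role, from 19.6, 10.5 and 10.9 CPM to 0.756, 0.447 and 0.407 CPM. It had 0 counts in all 3 libraries at 72h, at least 71.2-fold lower than in NSPs at a floor of 3 counts per library, and 3, 0 and 1 counts at 1week. Ska3, a partner in the same complex, changed least and was at 2.49, 2.18 and 3.34 CPM at 24h, 1.44, 1.78 and 1.32 at 72h, and 2.43, 2.9 and 2.54 at 1week, after 34, 19.5 and 21.6 in NSPs. Its difference between 1week and 72h was 0.79 ± 0.26 (adjusted p = 0.076). Cenpa, the histone H3 variant of the centromere, Cenpe, a kinetochore motor, Cenpf, and Knl1, a scaffold of the outer kinetochore, kept between 5.79% and 8.39% at 24h and between 1.55% and 2.37% at 72h.

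The 4 subunits of the Ndc80 complex, the main microtubule anchor of the kinetochore, did not fall alike. Per kilobase of exon, Ndc80, Nuf2, Spc24 and Spc25 stood at means of 8.06, 14.6, 10.6 and 17.2 CPM per kb in NSPs. At 72h they stood at 0.0490, 0.333, 0.110 and 1.27 CPM per kb. Spc25 had 78.4, 43.3 and 42.7 CPM in NSPs, 4.23, 4.86 and 3.99 at 24h, 3.33, 4.17 and 4.68 at 72h, and 5.3, 5.7 and 5.49 at 1week, so that it kept 7.41% at 72h where Nuf2 kept 2.29%, Spc24 1.04% and Ndc80 0.607%. From 24h to 72h the log2 fold change was −3.34 ± 0.39 for Ndc80, −1.56 ± 0.35 for Nuf2 and −2.38 ± 0.52 for Spc24, all called, and −0.10 ± 0.25 for Spc25 (adjusted p = 0.81). Spc25 lies on the minus strand of chromosome 2 from 69193895 to 69206194 and overlaps no exon of another gene. Its neighbours Nostrin, G6pc2 and Abcb11 were under 1 CPM in every library.

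**Figure D3:**
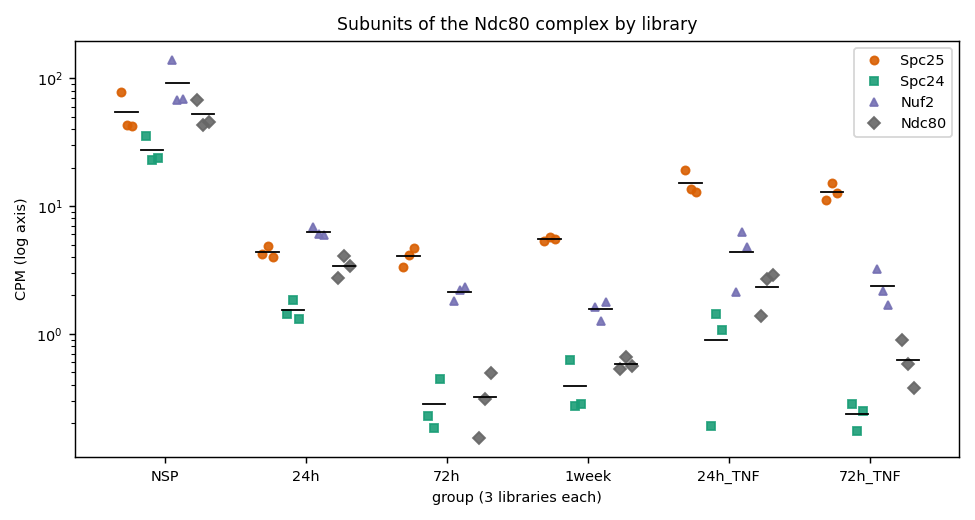
CPM (log axis) of the 4 Ndc80 complex subunits in each of the 3 libraries of the 6 groups; symbols are libraries and black bars are means. The subunits fall together from NSP to 24h, and at 72h and 1week Spc25 stays above the other 3, with 11.2 to 19.2 CPM in the TNF groups against 3.33 to 4.86 CPM at 24h and 72h without TNF.

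In the chromosomal passenger complex, which corrects faulty attachments, the kinase Aurkb and its partners Birc5 (survivin) and Cdca8 (borealin) kept 4.67%, 4.89% and 4.62% at 24h and 1.60%, 1.48% and 1.08% at 72h. Cdca8 changed most within this role by a narrow margin (−4.42 ± 0.31 on the log2 scale at 24h, with Aurkb at −4.42 ± 0.29). It had 86.1, 52.4 and 50 CPM in NSPs, 2.34, 3.35 and 3.02 at 24h, 0.681, 0.307 and 1.05 at 72h, and 0.662, 0.219 and 0.282 at 1week, the last 2 groups overlapping. Incenp, the scaffold of the complex, kept more. It had 111, 69.8 and 70.1 CPM in NSPs, 9.52, 9.51 and 10.4 at 24h, 6.13, 6.81 and 6.71 at 72h, and 7.77, 7.84 and 7.25 at 1week. Aurkb in turn had 66.6, 42.6 and 44.8 CPM in NSPs, 2.27, 2.24 and 2.69 at 24h, 0.681, 0.798 and 0.991 at 72h, and 1.85, 1.59 and 1.2 at 1week. Its 1week libraries lay above its 72h libraries, with a difference of 0.91 ± 0.36 that did not pass the test (adjusted p = 0.16).

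Among spindle motors and microtubule binders Kif2c changed most, with 94.9, 65 and 69.2 CPM in NSPs, 1.51, 3.13 and 1.87 at 24h, and 0.227, 0.368 and 0.605 at 72h. Its log2 fold change at 24h, −5.10 ± 0.36, was the largest fall of the 50. Kif4, a chromosome-bound kinesin, changed least within this role, with 152, 75.2 and 83.9 CPM in NSPs, 12.5, 13 and 15 at 24h, 16.3, 16 and 12.8 at 72h, and 13.3, 13.5 and 14.4 at 1week. Its levels after 24h overlapped. Exons of Pdzd11, on the opposite strand, cover 15.1% of the exons of Kif4, a processed copy of Kif4 is annotated, and the strand setting of the counting is not stated, so the level that remained could include reads of these genes. Aspm had 302, 243 and 263 CPM in NSPs, 13.6, 14.9 and 12.6 at 24h, 1.36, 1.41 and 1.05 at 72h, and 1.24, 1.53 and 1.76 at 1week. Hmmr, a microtubule-binding protein also known as RHAMM, followed a like course to 0.408% at 72h. Kif11, the bipolar kinesin Eg5, kept 2.00% at 72h, whereas Tpx2, an activator of Aurora A, and Nusap1 kept 4.42% and 4.62%.

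In the midzone and cytokinesis group, Kif23, a subunit of centralspindlin, changed most, with 101, 57.2 and 60.5 CPM in NSPs, 3.78, 4.98 and 4.89 at 24h, 0.151, 0.798 and 0.605 at 72h and 0.353, 0.658 and 0.915 at 1week. Racgap1, the other subunit, kept 8.98% at 24h and 2.91% at 72h, and Prc1, a bundler of midzone microtubules, kept 6.56% and 1.57%. Anln, anillin, a scaffold of the contractile ring, changed least. It had 119, 78.1 and 79.4 CPM in NSPs and lay between 9.7 and 14.8 CPM in all 9 untreated differentiating libraries, and its difference between 72h and 24h was 0.04 ± 0.18 (adjusted p = 0.92). Ect2, which activates RhoA at the cleavage furrow, and Kif20a kept 4.32% and 3.07% at 72h. Exons of Cdc23 on the opposite strand cover 29.3% of the exons of Kif20a.

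The 6 genes of mitotic chromosome structure kept between 4.53% (Top2a) and 61.2% (Smc4) at 24h. Top2a had 1180, 610.6 and 683.6 CPM in NSPs, 36.7, 40.1 and 35.2 at 24h, 4.77, 4.54 and 7.21 at 72h, and 4.9, 3.01 and 5.07 at 1week. Mki67 had 493, 457 and 471 CPM in NSPs, 42.7, 37.6 and 42.9 at 24h, 1.44, 1.35 and 1.38 at 72h, and 2.61, 3.01 and 2.32 at 1week. NSP replicate 1 was far above the other NSP libraries for Top2a and only slightly so for Mki67. The log2 fold changes at 24h were −4.46 ± 0.35 and −3.53 ± 0.42, and between 72h and 24h they were −2.75 ± 0.35 and −4.88 ± 0.52. The 1week libraries of Mki67 lay above its 72h libraries, a difference of 0.94 ± 0.58 that did not pass (adjusted p = 0.42). Smc4, a core subunit of condensin, had 163, 196 and 202 CPM in NSPs, 120, 118 and 105 at 24h, 89.5, 98 and 110 at 72h, and 78.9, 62.6 and 91.8 at 1week. It fell by 0.71 ± 0.15 on the log2 scale at 24h (adjusted p = 0.0006). Smc2, its partner, kept 21.7%, 19.2% and 17.9%, whereas Ncapg and Ncaph, subunits particular to condensin I, kept 5.46% and 10.8% at 24h and 1.40% and 1.60% at 1week. Smc2 and Smc4 also serve in condensin II.

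**Figure D4:**
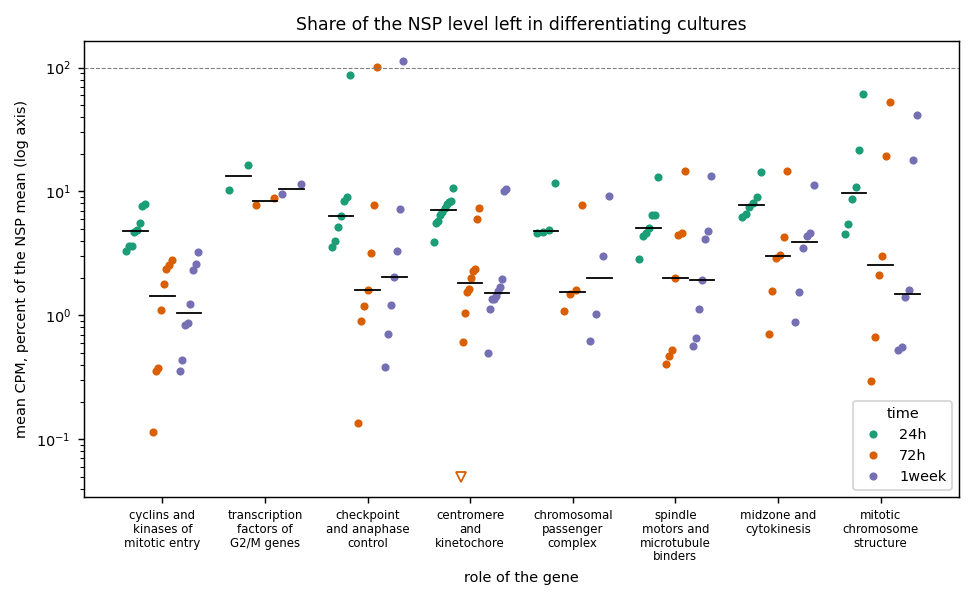
Mean CPM of each gene at 24h, 72h and 1week as a percent of its NSP mean (log axis), by role; points are genes, black bars are medians over the role, and the dashed line marks the NSP level. The open triangle stands for Ska1 at 72h, where no library had a count. Most genes lie under 10% at 24h and lower at 72h, and Pttg1 (87.9% to 112%) and Smc4 (41.6% to 61.2%) lie above the rest.

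The fall went on after the first day for most members. From 24h to 72h, 40 of 50 were lower, against 12.6% of all tested genes, with a median log2 fold change of −1.60. Among the 8 cyclins and kinases of mitotic entry all were lower, as were 9 of 10 centromere and kinetochore genes and 4 of 4 of the passenger complex. The other 10 members did not pass, and these were Mybl2, Mad2l1, Pttg1, Spc25, Tpx2, Nusap1, Kif4, Anln, Smc2 and Smc4. Over the 70 other G2/M genes listed for comparison, all 70 were lower at 24h than in NSPs (median −3.12) and 33 of 70 were lower at 72h than at 24h, with 1 higher (Ckap5, 0.64 ± 0.14, named after its value was seen). The largest falls after 24h there were those of Ube2c (−4.47 ± 0.61), Kif14 (−4.10 ± 0.66) and Troap (−3.70 ± 0.71). Of the 44 DNA replication genes, 43 were lower at 24h than in NSPs (median −2.55), where 25.5% of all genes were. From 24h to 72h 9 of the 44 were lower and 2 higher, where 12.6% and 12.2% of all genes were. Uhrf1, Clspn and Chaf1b fell most of these, by 2.84, 2.20 and 2.15 on the log2 scale.

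Members with and without the searched CHR letters in their window both fell. The 29 with the letters had a median log2 fold change of −3.93 at 24h and −5.63 at 72h, and the 10 without them −3.82 and −5.24. Between 72h and 24h the medians of these sets were −1.67 and −1.66. The 7 members with neither motif, Birc5, Mad2l1, Mybl2, Ncaph, Nuf2, Nusap1 and Pttg1, had medians of −3.59 and −4.43, and −0.47 between 72h and 24h, against −1.65 for the 24 with both. These medians are a description and no difference between them was tested.

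Of the 33 regulators of such genes that were listed (among them MuvB subunits, E2F and pocket proteins, inhibitors of cyclin-dependent kinases and NF-Y), 23 were lower and 1 was higher at 24h than in NSPs, where 25.5% of all genes were lower and 27.2% higher. The largest changes were those of E2f8 (−4.58 ± 0.53), Cdkn1c (−4.14 ± 0.40) and E2f2 (−4.10 ± 0.49), and the gene that rose was Rb1 (0.79 ± 0.14, named after its value was seen). From 24h to 72h 7 were lower and 6 higher, where 12.6% of all genes were lower and 12.2% higher.

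Between 72h and 1week 1 member was called. Cdk1 was lower, by 1.21 ± 0.33 on the log2 scale (adjusted p = 0.031), where 3.96% of all genes were lower. No member was called higher, where 2.68% of all genes were. At an unadjusted p under 0.05, 7 members were higher (8.38% of all genes), and DESeq2 also called Cdk1 lower and none higher. The median log2 difference was 0.13. The call of Cdk1 was lost on leaving out any 1 of the 3 1week libraries or 72h replicate 2 or 3, and with 72h replicate 3 unpaired in a replicate block.

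At 24h TNF went with a called change in 1 of the 50 members. This was Spc25, higher with TNF, where 2.18% of all genes were higher. It had 19.2, 13.6 and 12.8 CPM with TNF and 4.23, 4.86 and 3.99 without. The groups did not overlap, and the log2 fold change was 1.79 ± 0.24 (adjusted p = 0.00019). None was called lower by edgeR (1.32% of all genes) or by DESeq2, and 2 were lower at an unadjusted p under 0.05 (6.56% of all genes). The log2 differences were negative for 42 of 50, with a median of −0.24. Without 24h_TNF replicate 1, which was the lowest library for most members, 32 were negative and the median was −0.09, and Spc25 was again the 1 call. Ccnb1 had 1.83, 7.16 and 4.83 CPM with TNF, Mki67 had 14.4, 38 and 29.4, Top2a 16.1, 40.2 and 34.1, and Cdk1 6.55, 13.1 and 11.4, each with replicate 1 lowest. Their differences were −0.56 ± 0.36, −0.59 ± 0.39, −0.31 ± 0.31 and −0.17 ± 0.27. Foxm1 had 4.16, 7.75 and 7.31 CPM and Mybl2 1.83, 1.57 and 1.65.

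At 72h 3 members were called higher with TNF, where 4.35% of all genes were. Spc25 had 11.2, 15.1 and 12.6 CPM with TNF against 3.33, 4.17 and 4.68 without, a log2 fold change of 1.66 ± 0.24 (adjusted p = 0.00014). Aspm had 3.89, 2.15 and 2.88 CPM against 1.36, 1.41 and 1.05 (1.23 ± 0.33, adjusted p = 0.025). Ncaph had 10.8, 4.7 and 5.32 CPM against 2.35, 3.19 and 3.8 (1.15 ± 0.32, adjusted p = 0.028). No groups overlapped in these 3 genes. Without 72h_TNF replicate 1, Spc25 was called higher and Tpx2 lower (−0.96, adjusted p = 0.037), and Aspm and Ncaph did not pass (0.99 and 0.67, adjusted p = 0.12 and 0.18). Both also failed to pass without 72h replicate 2 (adjusted p = 0.066 and 0.091) and in a replicate block with 72h replicate 3 unpaired (0.16 and 0.063). Aspm alone did not pass without 72h replicate 3 (adjusted p = 0.13), and Ncaph alone did not without 72h replicate 1 (0.066) or in a fit of the compared groups only (0.066). Spc25 was called in each of these fits. None was called lower with all libraries (5.21% of all genes), by DESeq2 neither, and 1 was lower at an unadjusted p under 0.05 (13.4% of all genes). Members near 0 counts at 72h without TNF, such as Ska1 (0, 0 and 0) and Pbk (2, 1 and 1), left little or no room for a lower call. In a fit of only these 2 groups 40 of the 50 passed the filter on low counts. Mki67 had 10, 1.62 and 1.75 CPM with TNF against 1.44, 1.35 and 1.38 without, and its difference of 1.70 ± 0.56 (adjusted p = 0.062) was 0.28 when replicate 1 of both TNF groups was left out. It passed without 72h_TNF replicate 2 or 3 (adjusted p = 0.017 and 0.020) and by DESeq2 (0.034). The fit without replicate 1 of both TNF groups called Spc25 and Aspm higher (Aspm 0.98, adjusted p = 0.017) and Tpx2 lower, and Ncaph did not pass (0.66, adjusted p = 0.19). Ccnb1 had 1.18, 0.638 and 0.5 CPM, Cdk1 4.56, 4.06 and 2.82, Top2a 9.63, 5.22 and 4.5, Foxm1 3.21, 4.06 and 5.07, and Mybl2 1.8, 1.22 and 1.69, and none of these 5 passed the test. The median over the 50 was 0.20, and 0.02 without 72h_TNF replicate 1.

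**Figure D5:**
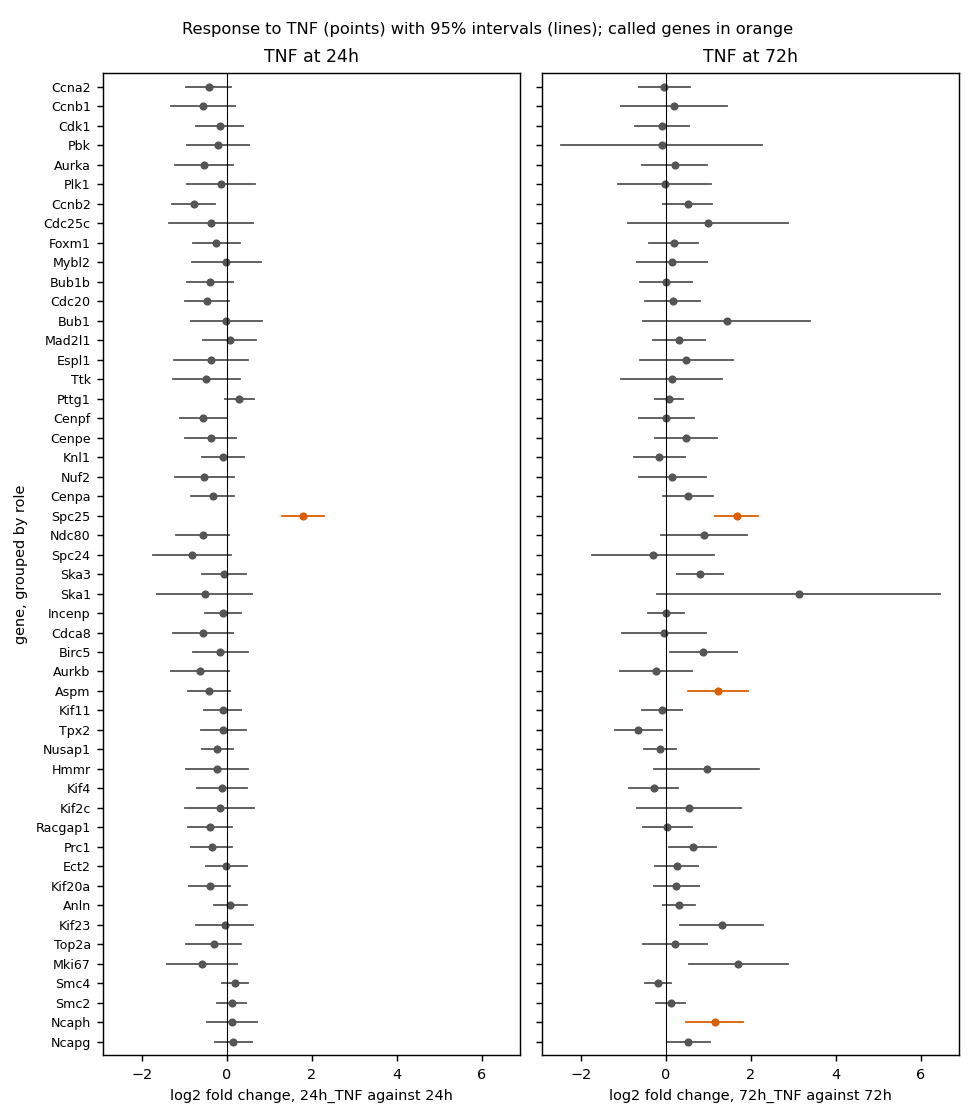
Log2 fold change with TNF against without at 24h (left) and 72h (right) for each of the 50 genes (rows, grouped by role); points are edgeR estimates, lines are 95% intervals, and orange marks genes with an adjusted p under 0.05. Spc25 lies at 1.79 and 1.66, Aspm and Ncaph are orange at 72h, and the wide lines at 72h belong to genes with few counts, such as Ska1.

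Of the other G2/M genes, 3 of 70 were called higher and 2 lower with TNF at 24h, where 2.18% and 1.32% of all genes were, and 5 were higher at 72h, where 4.35% of all genes were. Gtse1 rose by 1.55 ± 0.18 and 1.86 ± 0.18, Ckap2 by 1.38 ± 0.26 and 2.28 ± 0.26, and Cenpm changed by −1.69 ± 0.39 at 24h. At 72h Kifc1, a minus-end-directed spindle motor, was 1.27 ± 0.21 higher. None of the 44 DNA replication genes was called at either time by edgeR or DESeq2, and at an unadjusted p under 0.05 none was at 24h (7.2% of all genes higher and 6.56% lower), and 3 were higher and 4 lower at 72h (11.8% and 13.4% of all genes). Of the 33 regulators 1 was called higher at 24h, and 3 were higher and 2 lower at 72h, where 5.21% of all genes were lower. Cdkn1a, which encodes the kinase inhibitor p21, was 1.17 ± 0.25 higher at 24h and 1.35 ± 0.25 higher at 72h with TNF, Cdkn1c was −1.46 ± 0.42 and Ccnd1 1.34 ± 0.41 at 72h. Cdkn1a had 191.5, 102.9 and 123.4 CPM in 24h_TNF and 311.8, 146.1 and 172.6 CPM in 72h_TNF, replicate 1 highest in both. Ckap2 had 93.9, 58.0 and 50.3 CPM, then 171.8, 107.5 and 91.3 CPM, again with replicate 1 highest.

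Under TNF the decline between the times was also seen. From 24h_TNF to 72h_TNF, 29 of 50 members were lower, where 7.93% of all genes were, with a median of −1.11, and the replicate block gave 28. Mki67 fell by 2.59 ± 0.44, Ccnb1 by 2.53 ± 0.46, Top2a by 2.21 ± 0.34 and Cdk1 by 1.43 ± 0.29 on the log2 scale. Spc25 differed by −0.23 ± 0.22 (adjusted p = 0.56), and Foxm1 by −0.64 ± 0.27 (adjusted p = 0.13). The count was 15 in a fit of only these 2 groups and 18 without 24h_TNF replicate 2 or without 72h_TNF replicate 3.

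The test of the difference between the TNF responses at 72h and at 24h called no member in edgeR, where 0.458% of all genes were called in either direction. DESeq2 called 1, Aspm (1.65, adjusted p = 0.013). At an unadjusted p under 0.05, 11 members were higher at 72h than at 24h in this sense (4.46% of all genes). The difference was positive for 44 of 50 with a median of 0.53. Leaving out replicate 1 of both TNF groups, which lay low at 24h and high at 72h, gave 30 positive and a median of 0.06. For Spc25 the difference was −0.13 ± 0.34 (adjusted p = 0.91), with a 95% interval from −0.83 to 0.57.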

How the data were processed

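Total RNA was depleted of ribosomal RNA and sequenced as stranded paired-end libraries. The authors deposited raw counts per gene (1 table, 18 columns, no authors' comparisons). Their notes name FastQC, Trim Galore, STAR, SAMtools, featureCounts and mm10; versions, annotation, strand setting and treatment of multi-mapped reads are not given in the sources used here. RNA quality numbers are given for the series as 3.4 to 10 and not per library, so their part was not tested. Totals ran from 12509693 to 22549627 counts per library. The column of 72h replicate 3 carries another number than its title.

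Counts were fitted with edgeR 4.0.16 (R 4.3.3), quasi-likelihood, TMM, filterByExpr by group, all 18 libraries, no block, with Benjamini-Hochberg adjustment over 20067 genes and a threshold of 0.05. The fit was tested on simulated data. CPM are counts scaled by the library total multiplied by its TMM factor, and these factors ran from 0.91 to 1.085. Alternatives were DESeq2 1.42.0, RLE scaling, other filters, the compared groups alone, a log2 threshold of 1, replicate blocks and leaving out each library. Leaving out replicate 1 of both TNF groups was chosen after seeing the data. Members and lists were chosen with earlier results of these data known. Library values are given for Mki67, Top2a, Ccnb1, Cdk1, Foxm1, Mybl2, genes called or discussed, and the members of each role with the largest and smallest change at 24h; of other lists, the 3 largest called changes. Numbers were taken to pair 2 groups where all 3 same-numbered correlations of deviations from the group means were over 0.1. This held for 24h_TNF with 72h_TNF (0.255 to 0.291, a pairing read from the data) and for no other 2 groups. NSP with 72h came next (0.053 to 0.219). Gene positions are from GENCODE M21 and promoter windows from RefSeq, GRCm38.p6.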

Additional observations from a re-analysis of the deposited data

How the results depend on the processing

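The counts of called members against NSPs were 49 at each time under every alternative that left a library out. No member that was called in the main fit or in an alternative reversed in direction between them. Signs of uncalled members did change. With TNF at 24h 42 members were negative, and 32 were without replicate 1 of both TNF groups. From 24h to 72h the count of 40 became 25 of 34 tested members when 10 counts were required in every library, and ran from 37 to 39 without 1 library. Between 1week and 72h it was 2 in a fit of the compared groups only (Mki67 higher, Cdk1 lower), 0 in a block with 72h replicate 3 unpaired, and 0 to 1 without 1 library. With TNF at 24h it was 1 without any 1 library. With TNF at 72h it was 5 by DESeq2 (Aspm, Kif23, Mki67, Ncaph and Spc25) and 4 with 10 counts required in every library (Aspm, Ncaph, Ska3 and Spc25). It was 1 in the block with 72h replicate 3 unpaired (Spc25, with Aspm and Ncaph lost), and 1 to 4 without 1 library, with the lowest value without 72h replicate 2 (again Spc25). From 24h_TNF to 72h_TNF it was 16 with 10 counts required in every library, 15 with the compared groups only, and 18 to 34 without 1 library. For the difference between the TNF responses it was 1 by DESeq2 and 0 to 1 without 1 library, the 1 being Aspm without 24h_TNF replicate 2. The replicate block gave 39 from 24h to 72h, 28 from 24h_TNF to 72h_TNF, and changed no other count. The smaller counts under the stricter filter follow in part from fewer members tested; for the others the cause was not tested. Levels under 1 CPM rest on few counts, and with 3 libraries a group small differences may have been missed.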
